A study of Mus musculus with 8 samples.

Results

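A set of 10 structural RNAs that end without a poly(A) tail was followed on 8 mouse microarrays, 4 hybridised with RNA of negative control cultures and 4 with RNA of cultures in which the long noncoding RNA Pvt1 had been silenced. The members were Rn18s, Rn28s1, Rn7sk, Rn7s1, Rnu1a1, Rnu1b1, Rnu3b1, Rnu12, Rpph1 and Rmrp, which are 10 of the 37074 gene names carried by the 56605 probes that are not control probes. They were chosen with the difference between the groups already known. Their group difference is therefore given as a description, with no p-value, and counts past a threshold in the main fit are set beside the share of all probes that passed it. Each of the 10 was measured by 1 probe, placed as 1 spot on each array.

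All cultures were proliferating C2C12 cells, a mouse line of skeletal muscle myoblasts that fuse into myotubes in culture, at passage 10. The silenced cultures (labels: silencing Pvt1) were transfected by Lipofectamine with a pair of LNA GapmeRs named Pvt1_1 and Pvt1_3, which are locked nucleic acid antisense oligonucleotides that direct RNase H to the target RNA. The negative control cultures (labels: none, Mock) received Lipofectamine with LNA GapmeR negative controls. The labels name 4 biological replicates in each group. By this protocol both groups carried a transfected oligonucleotide, although the words none and Mock in the labels could be read otherwise. Every culture was a population of 1 cell line. In bulk RNA of this kind, fewer cells of a type and less RNA per cell cannot be told apart.

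The members are the RNA parts of ribonucleoprotein machines. Rn18s and Rn28s1 are the RNAs of the small and the large ribosomal subunit, transcribed together by RNA polymerase I. Rn7sk, the 7SK RNA, holds the transcription elongation kinase P-TEFb in an inactive complex, and Rn7s1, the 7SL RNA, is the scaffold of the signal recognition particle, which takes nascent secretory proteins to the endoplasmic reticulum. Rnu1a1 and Rnu1b1 are variants of U1, which pairs with the 5′ splice site. Rnu3b1 is a U3 RNA, which guides early cleavages of the ribosomal RNA precursor, and Rnu12 is U12, the branch site RNA of the minor spliceosome. Rpph1 is the RNA of RNase P, which trims the 5′ end of tRNA precursors, and Rmrp is the RNA of RNase MRP, which cuts the ribosomal RNA precursor. U1, U3 and U12 are made by RNA polymerase II and receive a trimmethylguanosine cap, whereas 7SK, 7SL, RNase P RNA and RNase MRP RNA are made by RNA polymerase III. Mature forms of these RNAs carry no poly(A) tail. The labelling kit named in the labels starts complementary DNA from an oligo(dT) primer. How these RNAs were primed here was not tested.

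The probes of 9 members are printed first, because they state which piece of each RNA the signals below come from. Each line is the sense strand of the RNA, written 5′ to 3′ as the array files give it, with the first longest run of A in capitals.
Rn18s: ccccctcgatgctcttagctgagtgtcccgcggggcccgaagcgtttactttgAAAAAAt
Rn28s1: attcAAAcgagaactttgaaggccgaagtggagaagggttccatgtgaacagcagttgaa
Rn7sk: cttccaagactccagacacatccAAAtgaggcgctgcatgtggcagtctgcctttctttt
Rnu1a1: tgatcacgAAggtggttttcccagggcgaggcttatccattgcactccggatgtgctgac
Rnu1b1: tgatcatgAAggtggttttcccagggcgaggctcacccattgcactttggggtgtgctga
Rnu3b1: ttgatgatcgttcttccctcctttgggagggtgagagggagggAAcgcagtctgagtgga
Rnu12: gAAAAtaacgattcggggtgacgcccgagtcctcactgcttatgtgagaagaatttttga
Rpph1: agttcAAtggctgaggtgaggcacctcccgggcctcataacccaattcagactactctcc
Rmrp: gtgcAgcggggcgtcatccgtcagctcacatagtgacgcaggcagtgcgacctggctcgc

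The Rn18s probe held a run of 6 A next to its 3′ end, and runs of at least 6 A were found in 2.94% of the 56605 probes. The Rnu12 probe had a longest run of 4 A, a length reached or passed by 31.9% of all probes, and the other printed probes had shorter runs. The Rn7sk probe ended in 4 T, the kind of run at which RNA polymerase III stops. Guanine and cytosine made up 45% of the Rn28s1 and Rnu12 probes and 66.7% of the Rmrp probe, with the other printed probes between these values, against a median of 41.7% over all probes. The printed probes thus did not share a long run of A.

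In the mm9 coordinates of the array files the probes lay at chr17:39984059-39984118 on the plus strand for Rn18s, chr13:97960526-97960585 on the minus strand for Rn28s1 and chr9:78023109-78023168 on the minus strand for Rn7sk. The Rnu1a1 probe was placed at chr3:96292678-96292738, the Rnu1b1 probe at chr3:96177970-96178029 and the Rnu3b1 probe at chr11:87285025-87285084, all on the plus strand. The Rnu12 probe lay at chr15:82980096-82980155 on the plus strand, the Rpph1 probe at chr14:51427130-51427189 on the minus strand and the Rmrp probe at chr4:43505692-43505751 on the minus strand. All 10 are noncoding genes, and whether a probe position also lies in an exon of another gene was not checked. The RefSeq gene table matched 9 of the 10 by accession, the exception being Rn18s, and put Rnu1a1 and Rnu3b1 within the span of Tex14 on chromosome 11. It placed Rn28s1 on chromosome 11 too. For Rnu1a1 and Rn28s1 the sources thus disagree on the chromosome, and which is right was not settled. Several members belong to families of near-identical copies. The array files credit the Rn7s1 probe to Rn7s2 as well, the Rnu1b1 probe to Rnu1b2 and Rnu1b6, and the Rnu3b1 probe to Rnu3b2, Rnu3b3 and Rnu3b4, so these signals cannot be assigned to 1 copy, and ribosomal RNA genes are repeated in the genome beyond the position listed.

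Silencing was checked first. On the log2 scale of quantile normalised intensity, used for all levels below, Pvt1 read 9.65, 9.79, 10.31 and 9.70 on control arrays 1 to 4 and 7.09, 6.69, 7.85 and 6.39 on silenced arrays 1 to 4. Every silenced array lay below every control array, and the change was -2.86 (SE 0.32, limma adjusted p = 0.00068; exact two-sided permutation p = 0.0286, the smallest that 4 against 4 arrays can give). Across the series, 51.6% to 62.5% of probes were positive and significant against background on an array, the lowest share being that of silenced replicate 4. All arrays lay on 1 slide and were scanned in 1 run. The first slide row held control arrays 1 to 3 and silenced array 1, and the second row held control array 4 and silenced arrays 2 to 4. No member spot was saturated or marked as an outlier.

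Of the 10 member probes, 8 had a higher signal in the silenced cultures at a limma adjusted p under 0.05, and none had a lower one, where 4.79% of all 28649 tested probes passed that threshold upwards. In 7 of the 10 every silenced array lay above every control array, as did 5.61% of all tested probes. Nothing is read from these counts, since the members were chosen on this contrast. The median change of the 10 was 2.93 on the log2 scale, against -0.19 over all tested probes. Both ribosomal RNAs, 7SK, 7SL, both U1 variants and U3 were 6.92-fold to 11.9-fold higher. RNase P RNA was 3.80-fold higher with overlapping arrays, and U12 and RNase MRP RNA differed by 1.07-fold and 1.24-fold.

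**Figure D1:**
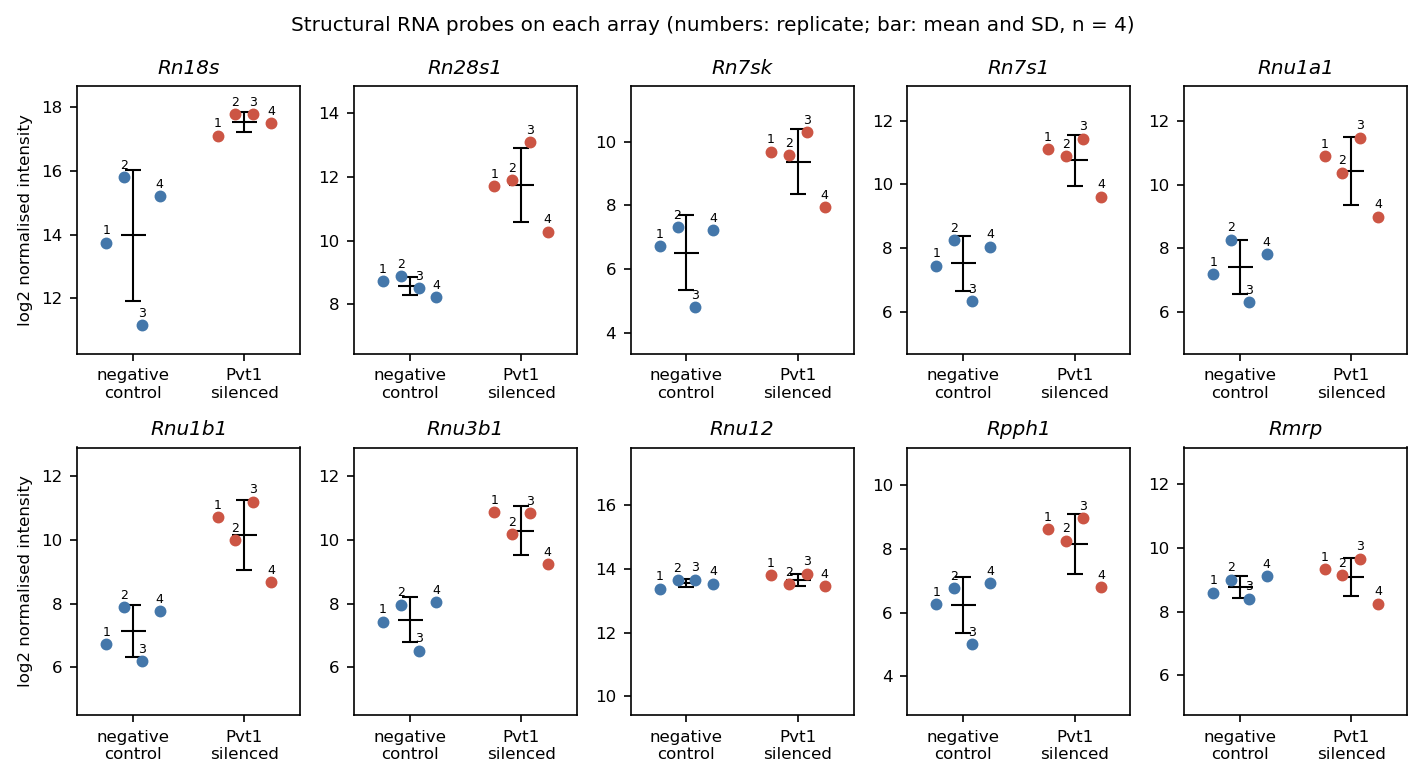
Log2 quantile normalised intensity of each structural RNA probe on the 4 negative control arrays (blue) and the 4 Pvt1 silenced arrays (red), with replicate numbers beside the points and the mean and SD as a bar; every panel spans the same number of log2 units. The silenced arrays sit above all control arrays for the first 7 genes, overlap them by 1 array for Rpph1, and lie partly above and partly within or below the control range for Rnu12 and Rmrp.

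The 18S ribosomal RNA probe varied most between control cultures. Rn18s read 13.74, 15.79, 11.15 and 15.20 on control arrays 1 to 4 and 17.10, 17.77, 17.77 and 17.50 on silenced arrays 1 to 4. The controls spanned 24.9-fold, from replicate 3 to replicate 2, whereas the silenced arrays spanned 1.59-fold, and the groups were separated by 1.31 log2 units. The change was 3.57 (SE 0.84), or 11.9-fold. Before any scaling between arrays the processed intensities were 13196, 46101, 2261 and 33599 in the controls and 163002, 175934, 146828 and 142910 in the silenced cultures. The spot was among the 11 brightest of 59305 on every silenced array, so quantile normalisation set it close to the upper end of the common distribution there. Without control replicate 3 the change was 2.70, and without control replicate 2 it was 4.18.

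The 28S probe showed the opposite distribution of spread. Rn28s1 read 8.73, 8.89, 8.50 and 8.23 on control arrays 1 to 4 and 11.72, 11.91, 13.08 and 10.28 on silenced arrays 1 to 4. Here the controls agreed within 1.58-fold, the silenced arrays spanned 6.96-fold from replicate 4 to replicate 3, and the groups were separated by 1.39. The change was 3.16 (SE 0.49), or 8.94-fold. Control replicate 3, the lowest of all arrays for the 18S probe, was not the lowest control for the 28S probe.

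The scaffold RNAs made by RNA polymerase III resembled each other. Rn7sk read 6.72, 7.32, 4.80 and 7.22 on control arrays 1 to 4 and 9.69, 9.58, 10.30 and 7.94 on silenced arrays 1 to 4. Control replicate 3 was lowest, and on that array alone the spot was not well above background. Silenced replicate 4 came within 0.62 log2 units of the highest control, and the change was 2.86 (SE 0.63), or 7.28-fold. It was 2.27 without control replicate 3, 2.17 with only spots well above background and 1.98 with normexp background correction. Rn7s1 read 7.45, 8.26, 6.34 and 8.05 on control arrays 1 to 4 and 11.11, 10.90, 11.44 and 9.61 on silenced arrays 1 to 4. The same control and the same silenced array were lowest in their groups, and the groups stood 1.35 apart. Its change was 3.24 (SE 0.49), or 9.45-fold.

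The U1 variants gave nearly the same values. Rnu1a1 read 7.18, 8.27, 6.32 and 7.82 on control arrays 1 to 4 and 10.89, 10.37, 11.47 and 8.99 on silenced arrays 1 to 4. The groups were 0.72 apart, and the change was 3.03 (SE 0.56), or 8.18-fold. Rnu1b1 read 6.74, 7.89, 6.21 and 7.77 on control arrays 1 to 4 and 10.71, 9.99, 11.21 and 8.68 on silenced arrays 1 to 4. The groups were 0.79 apart, the change was 3.00 (SE 0.56), or 7.99-fold, and control replicate 3 was not well above background. With normexp background correction the changes of Rnu1a1 and Rnu1b1 were 2.44 and 2.33. In both, replicate 3 was the lowest control and the highest silenced array.

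A further U1 probe, Rnu1b6, overlaps that of Rnu1b1 by 55 bases and is shown because it repeats the measurement on a separate spot. In the pairs below capitals mark the bases that differ or face a gap within the aligned stretch.
Rnu1b1 against Rnu1a1: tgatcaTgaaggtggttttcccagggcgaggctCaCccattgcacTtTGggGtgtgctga
Rnu1a1 against Rnu1b1: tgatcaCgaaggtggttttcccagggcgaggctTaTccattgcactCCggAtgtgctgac
Rnu1b1 against Rnu1b6: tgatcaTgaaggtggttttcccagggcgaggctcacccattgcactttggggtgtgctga
Rnu1b6 against Rnu1b1: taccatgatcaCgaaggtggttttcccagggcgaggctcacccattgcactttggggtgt

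The Rnu1a1 and Rnu1b1 probes were identical at 53 of 59 aligned bases, and the Rnu1b6 and Rnu1b1 probes at 54 of 55, so a given U1 transcript could bind more than 1 of these spots. Rnu1b6 (chr3:96177965-96178024, plus strand) read 7.89, 6.28 and 7.86 on control arrays 2 to 4 and 10.81, 10.29, 11.42 and 8.94 on silenced arrays 1 to 4. Its spot on control array 1 was marked as an outlier by the scanner software and left out. With 3 control values the change was 3.02 (SE 0.61), close to those of the other U1 probes, and it is not independent of them. In the authors' processed table the change of this probe was 1.60.

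The U3 probe, which reports the RNA that guides pre-ribosomal cleavage, varied between arrays like U1, and at least as closely like 7SL and RNase P RNA. Rnu3b1 read 7.43, 7.97, 6.52 and 8.05 on control arrays 1 to 4 and 10.88, 10.19, 10.83 and 9.24 on silenced arrays 1 to 4. The groups stood 1.19 apart, and the change was 2.79 (SE 0.44), or 6.92-fold. Silenced replicate 4 was the lowest of its group and control replicate 3 the lowest of all.

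U12 stood apart from the other RNAs made by RNA polymerase II. Rnu12 read 13.38, 13.65, 13.67 and 13.54 on control arrays 1 to 4 and 13.80, 13.53, 13.85 and 13.46 on silenced arrays 1 to 4. The groups overlapped, the arrays of the control group lay within 1.22-fold and those of the silenced group within 1.31-fold, and the change was 0.10 (SE 0.19). Control replicate 3 was here the highest control. On spike-in scaling, which sets the arrays by the viral control transcripts added to each labelling, the change was -0.05. It was 0.30 with a shift by the 75th percentile, 0.33 after cyclic loess, 0.28 with no mask on dim spots and 0.46 without normalisation between arrays.

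The RNAs of the related RNases P and MRP differed from each other in their values. Rpph1 read 6.27, 6.76, 5.00 and 6.91 on control arrays 1 to 4 and 8.62, 8.25, 8.96 and 6.80 on silenced arrays 1 to 4. Silenced replicate 4 lay 0.11 below the highest control, and the change was 1.92 (SE 0.53), or 3.80-fold, with control replicate 3 not well above background. It was 1.23 with normexp background correction. Rmrp read 8.60, 9.00, 8.40 and 9.12 on control arrays 1 to 4 and 9.32, 9.14, 9.66 and 8.25 on silenced arrays 1 to 4. Silenced replicate 4 was the lowest of all 8 arrays, the groups overlapped, and the change was 0.31 (SE 0.32). It was -0.12 on spike-in scaling, 0.62 to 0.64 after cyclic loess, in the authors' table and with no mask on dim spots, where it passed the threshold, and 0.12 to 0.60 when single arrays were left out.

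The rows of the slide held the groups unequally. In the first row the silenced array exceeded the control mean by 2.61 for Rpph1 and 3.77 for Rnu1b1, with the other 6 members of the 8 called between them. In the second row the silenced mean exceeded the single control by 1.09 for Rpph1 and 3.53 for Rn28s1, again with the other 6 between. Rnu12 differed by 0.23 and 0.07, and Rmrp by 0.66 and -0.11. With the slide row as a block, 6 of the members passed the threshold where 1.86% of all tested probes passed it upwards, and Rn18s with a change of 3.01 and Rpph1 with 1.85 did not. Rpph1 also fell short when control replicate 1 or silenced replicate 1, 2 or 3 was left out, with changes of 1.66 to 1.93.

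**Figure D2:**
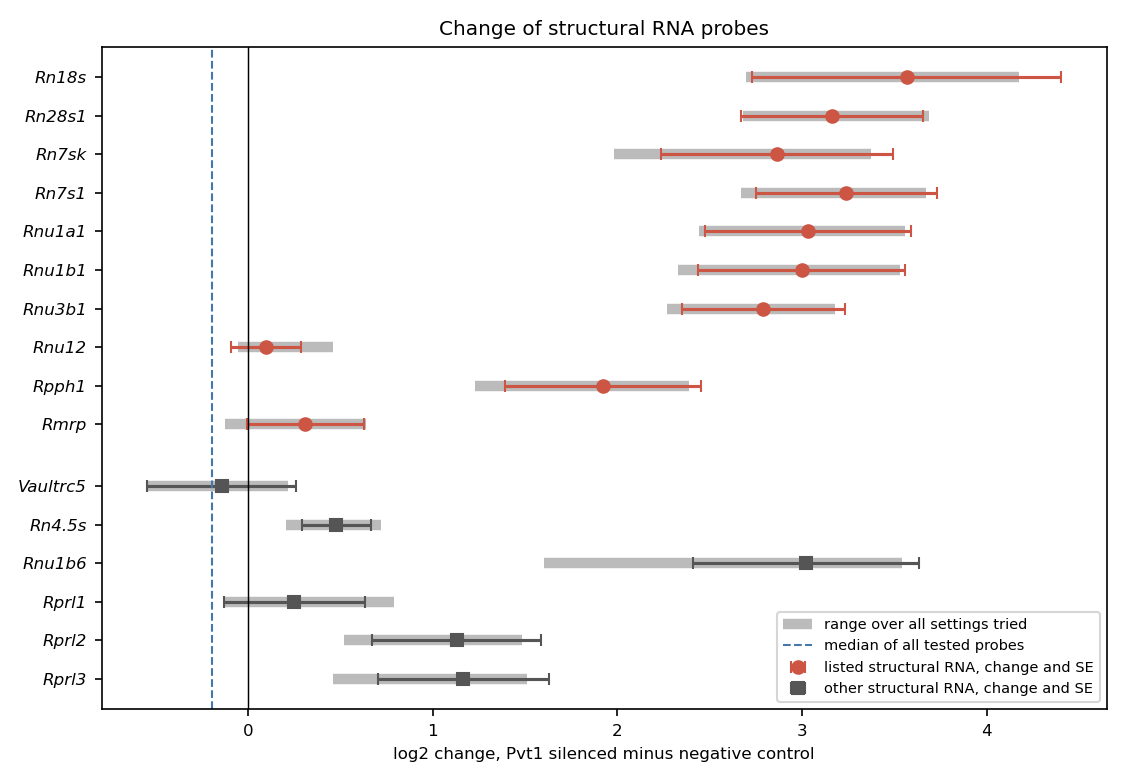
Log2 change (silenced minus control) of each structural RNA probe with its SE from limma, for the 10 listed genes (circles) and the 6 other tested structural RNA probes (squares, of which Vaultrc5 and Rprl1 were not well above background on any control array); grey bars span the values over all settings tried, and the dashed line is the median of all tested probes. The 7 probes from Rn18s to Rnu3b1 and the Rnu1b6 probe keep values above 1.5 in every setting, while the bars of Rnu12 and Rmrp cross 0.

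Variation within the groups was shared by most members. After group means were removed, the 6 called small RNAs (7SK, 7SL, both U1 variants, U3 and RNase P RNA) correlated over the 8 arrays with Pearson's r of 0.91 to 0.99 and a median of 0.97 over 15 pairs. These correlations are a description over arrays that share 1 slide, and each point enters every pair. Control replicate 3 was the lowest of all 8 arrays for 7 of the 10 members, silenced replicate 4 was the lowest silenced array for 9, and silenced replicate 3 was the highest array for 8 and tied for the highest in Rn18s. The deviation of control replicate 3 was -2.82 for Rn18s, -1.72 for Rn7sk and -0.09 for Rn28s1. That of silenced replicate 4 was -0.04 for Rn18s, -1.44 for Rn7sk and -1.46 for Rn28s1, so the ribosomal RNA probes each followed the small RNAs in 1 group only.

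**Figure D3:**
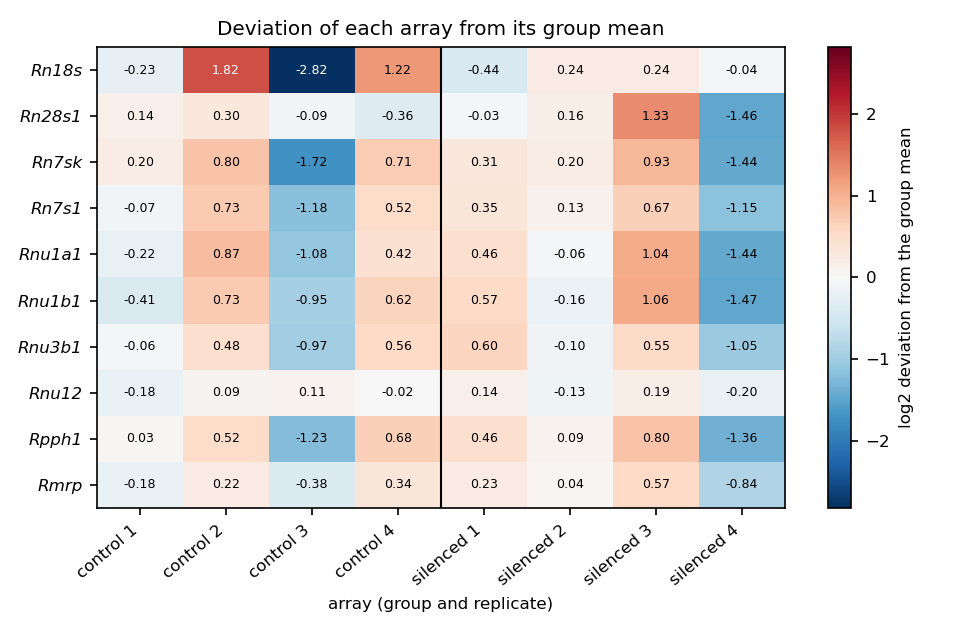
Deviation of each array from the mean of its group in log2 units, with 1 row for each structural RNA and 1 column for each array; red is above and blue below the group mean, and the vertical line separates the groups. Control replicate 3 and silenced replicate 4 are below their group means for most genes, and Rnu12 stays between -0.20 and 0.19.

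Protein-coding genes also varied in this way. Of the 25098 other probes with a value on every array, 7.24% correlated with Rn7sk at r of at least 0.9 after group means were removed, 7.37% with Rn7s1, 7.38% with Rpph1, 8.88% with Rmrp, and 2.40% and 2.92% with Rn18s and Rn28s1. The most alike genes were Pbx2, BC039973 and Dlg4 for Rn18s (r of 0.98 each), Ifrd1, Asrgl1 and Mib1 for Rn28s1 (0.98 to 0.99), Fam53c, Mbip and Npat for Rn7sk (1.00 each) and Gm6109, Arcn1 and Pdp2 for Rn7s1 (1.00 each). For Rnu1a1 they were Prkacb, Tbck and Tmem184b (0.99 to 1.00), for Rnu1b1 a noncoding probe on chromosome 13, Gdap10 and Zc3h7a (0.99 to 1.00), and for Rnu3b1 a noncoding probe on chromosome 4, 3830406C13Rik and Sod3 (1.00 each). Zbtb43, Cfap61 and a noncoding probe on chromosome 7 were most like Rnu12 (0.99 each), Dip2a, Hist1h4c and Phf13 most like Rpph1 (1.00 each), and Mettl4, Pdk4 and Pofut1 most like Rmrp (0.99 to 1.00). Their group changes ran from -1.53 for Pbx2 to 2.89 for BC039973, so likeness within groups went with changes in either direction.

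Of 32 further names of structural RNAs looked for, 8 were on the array. A further probe for Rs5-8s1, the 5.8S ribosomal RNA, was added after its values were seen, was well above background on no array and was not tested. Rnu2-10, a U2 RNA, read 3.82, 4.46, 3.83 and 3.94 on control arrays 1 to 4 and 7.96, 7.43, 8.67 and 6.70 on silenced arrays 1 to 4, on values without removal of dim spots. It exceeded background clearly on none of the control arrays and on 3 silenced arrays. The mean of the silenced arrays was 9.19-fold above a floor. On each control array that floor was the lowest signal among probes well above background or the probe's own, whichever was higher. Vaultrc5 averaged 5.29 on the control arrays on these values and was well above background on none of them. Signals above the floor can thus fail that criterion, so 9.19-fold is not a strict lower bound.

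Rn4.5s, the rodent 4.5S RNA, read 15.59, 15.76, 15.59 and 15.70 on control arrays 1 to 4 and 16.19, 15.99, 16.40 and 15.96 on silenced arrays 1 to 4. The silenced arrays were all above the controls by a small margin, with a change of 0.48 (SE 0.19, limma adjusted p = 0.095). Rprl2 and Rprl3, relatives of the RNase P RNA gene, had changes of 1.13 (SE 0.46, limma adjusted p = 0.10) and 1.17 (SE 0.46, limma adjusted p = 0.099). Both were well above background on 2 of the 4 control arrays, the groups overlapped, and the changes were 0.39 and 0.14 within the second slide row and went down to 0.52 and 0.46 over the settings tried. Rprl1 was well above background on no array and Vaultrc5, a vault RNA, on 1 silenced array only, so no difference is read from their probes. Terc, the telomerase RNA, was well above background on 1 of 8 arrays and was not tested.

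The groups of transcripts next in kind were counted after their values had been seen. Of 57 tested probes for replication-dependent histone genes, whose messengers end in a stem-loop in place of a poly(A) tail, 16 were called higher and none lower, where 4.79% of all tested probes were called higher and 18.4% lower, with a median change of 0.65. The 13 probes for small nucleolar and Cajal body RNAs held no probe called higher and 1 called lower, with a median of 0.18. The difference of these groups from the 10 structural RNAs was not tested.

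Several other features of the arrays moved with the group. Over 1119 genes with probes 300 to 1000 bases apart, the upstream minus the downstream probe had a median of -1.11 to -0.75 on the control arrays and -1.91 to -1.45 on the silenced arrays, and replicate 3 had the lowest value in each group. Of 12 liver markers, 11 were not well above background on any control array and 4 not on any silenced array, 7 were higher on every silenced than on every control array, and their summed intensity was 922 to 1745 in controls and 4867 to 6134 after silencing. Albumin (Alb) was among those 7, and Apoa1 was well above background on no array. Of 8 myoblast markers, 6 were well above background on every control array and 7 on every silenced array, 3 (Myod1, Des and Cdh15) were lower and 1 (Myf5, not well above background on any array) higher on every silenced than on every control array, and the summed intensity was 202224 to 224587 and 152464 to 188447. The mean log2 signal of 6 bright spike-in transcripts deviated from its mean over the 8 arrays by -0.52 to -0.13 in controls and -0.08 to 0.39 after silencing. The part of each in the structural RNA values was not tested.

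Transcripts for proteins that bind, make or trim the members mostly did not pass the threshold by the brightest probe of each gene, which the list counts use, and those that did were mostly lower. Of 121 genes tested across 9 lists, 2 rose and 23 fell at a limma adjusted p under 0.05, where 5.99% of all 19360 tested genes rose and 14.0% fell by their brightest probe. The median change of the 121 was -0.12, against -0.09 over all genes. The choice of probe also mattered: of the 96 genes not called, 58 had further tested probes, and at least 1 of these was called lower for 22 genes and higher for 1 gene. The split depended on the scaling: 18 rose and 26 fell after cyclic loess, and 2 rose and 60 fell on spike-in scaling. The median change of all tested probes moved too, being 0.02 after cyclic loess and -0.57 on spike-in scaling. The share of all genes called under those scalings is not given, so these counts are not read as particular to the partner genes. With the slide row as a block none rose and 8 fell (Srprb, Rrp9, Srp68, Ints4, Ints5, Polr3d, Hexim2 and Exosc1). The share of all genes called with that block is not given.

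Of 7 proteins of the 7SK complex, 1 was called lower and none higher by the brightest probe, with a list median of -0.57. A further probe was called lower for 4 of the others (Cdk9, Mepce, Ccnt1 and Ccnt2). The called gene was Hexim2, which with 7SK RNA inhibits P-TEFb, and its probes disagreed. The brighter changed by -1.19 (SE 0.24, limma adjusted p = 0.0077) and the other by 1.19 (SE 0.32, limma adjusted p = 0.027).

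Of 9 tested genes of the signal recognition particle and its receptor, 3 fell and none rose by the brightest probe, with a list median of -0.26. For Srp72, 2 of 3 tested probes were called lower, and for Srpr 1 of 2, but not the brightest. Srprb, the membrane anchor of the receptor, fell by 2.13 (SE 0.23, limma adjusted p = 0.00059), from 11.59 ± 0.15 to 9.46 ± 0.36 (SD, n = 4 per group). Srp68, a particle protein that binds 7SL, fell by 1.52 (SE 0.22, limma adjusted p = 0.0019). Srp54c, which encodes the signal sequence binding subunit, fell by 0.80 (SE 0.18, limma adjusted p = 0.013) and was not called with the slide row as a block. For the same subunit, Srp54a changed by -0.26 (SE 0.32, limma adjusted p = 0.61), with none of its 3 tested probes called.

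None of 10 genes for U1 and Sm proteins and none of 11 for RNase P and MRP proteins passed the threshold by the brightest probe, with list medians of 0.01 and 0.23. Further probes were called lower for 3 genes of the first list, 2 of 3 tested probes for Snrpb and 1 of 2 each for Snrpa and Snrnp70, and for none of the second. Of 8 genes for U3 proteins 3 fell and none rose, with a list median of -0.51, and Nop56 and Nop58 had further probes called lower. They were Rrp9, a protein particular to U3, which fell by 2.06 (SE 0.23, limma adjusted p = 0.00067), Mphosph10, which fell by 1.13 (SE 0.25, limma adjusted p = 0.011), and Nhp2l1, shared with the U4 particle, which fell by 0.61 (SE 0.19, limma adjusted p = 0.043). Of 9 genes for proteins of the minor spliceosome, where U12 acts, Zmat5 alone was called, at -0.87 (SE 0.24, limma adjusted p = 0.030), with a list median of -0.11.

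**Figure D4:**
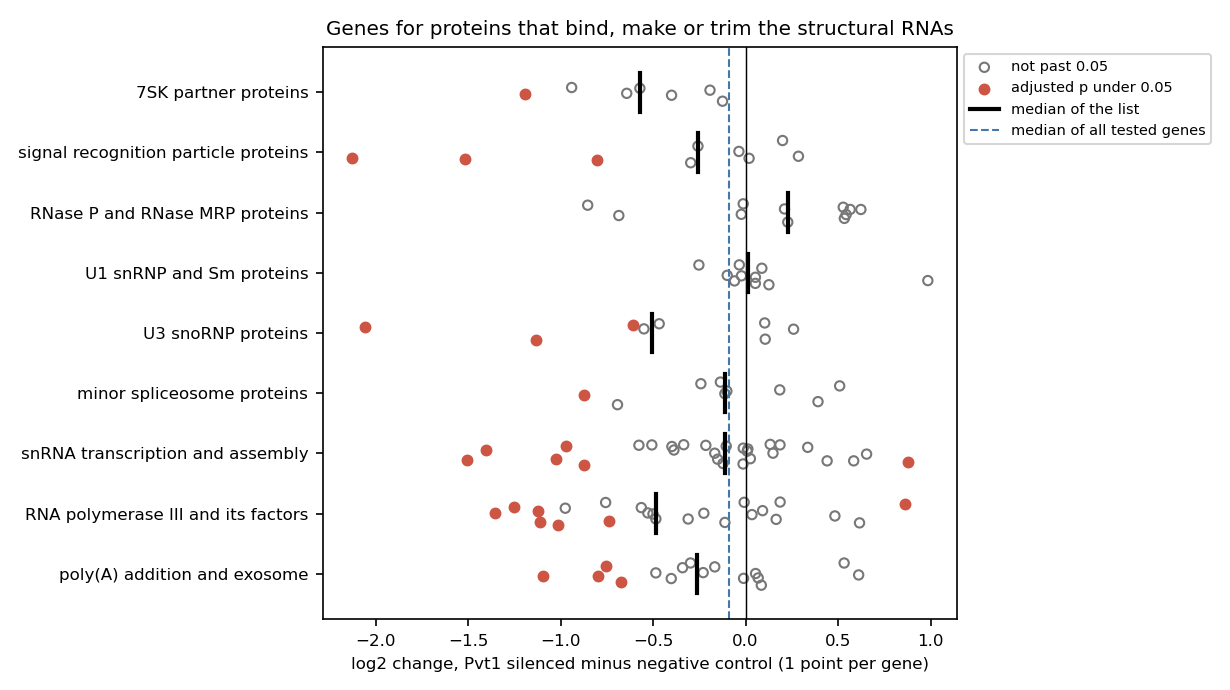
Log2 change (silenced minus control) of genes for proteins that bind, make or trim the structural RNAs, with 1 point for each gene by its brightest probe; filled points passed a limma adjusted p under 0.05, black bars are list medians and the dashed line is the median of all tested genes. Called genes lie mostly to the left of 0, with 2 to the right (18 after cyclic loess, which is not drawn).

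Of 23 genes for RNA polymerase III and its factors, 6 fell and 1 rose, with a list median of -0.49, and among the rest a further probe was called lower for 5 and higher for 1 (Gtf3c1). The polymerase subunits Polr3d and Polr3a changed by -1.36 (SE 0.22, limma adjusted p = 0.0030) and -1.25 (SE 0.30, limma adjusted p = 0.016), and Brf1, a subunit of the initiation factor TFIIIB, fell by 1.12 (SE 0.26, limma adjusted p = 0.013). A further Polr3d probe changed by 0.31. The gene that rose, Polr3gl, an alternative subunit, was singled out after its value was seen and changed by 0.86 (SE 0.26, limma adjusted p = 0.038), with its other probe at -0.39.

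Of 28 genes for transcription, 3′ end cleavage and assembly of small nuclear RNAs, 5 fell and 1 rose, with a list median of -0.11, and a further probe was called lower for 4 of the rest. Ints4 and Ints5, subunits of the Integrator complex that cuts the 3′ end of these RNAs, changed by -1.51 (SE 0.25, limma adjusted p = 0.0030) and -1.40 (SE 0.23, limma adjusted p = 0.0030), and Tgs1, which makes the trimethylguanosine cap, fell by 1.03 (SE 0.23, limma adjusted p = 0.013). A further Ints4 probe read 0.04. Gemin4, part of the SMN complex that loads Sm proteins, was singled out after its value was seen and rose by 0.88 (SE 0.20, limma adjusted p = 0.013), with its other probe at 0.11.

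The last list held enzymes that add short A tails to structural RNAs before decay, the exosome and the mitochondrial poly(A) polymerase. Of 16 genes 4 fell and none rose, with a list median of -0.26, and Exosc7 and Exosc10 had further probes called lower. Exosc1, an exosome cap subunit, fell by 1.09 (SE 0.19, limma adjusted p = 0.0041), Skiv2l2, the helicase that feeds the nuclear exosome, fell by 0.80 (SE 0.21, limma adjusted p = 0.023), and Exosc4, a subunit of the exosome ring, fell by 0.75 (SE 0.21, limma adjusted p = 0.031). Across all lists, 15 of the 25 called genes had further tested probes, and for 3 of them a further probe was called in the same direction and for 1, Hexim2, in the opposite direction.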

How the data were processed

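The authors deposited Agilent Feature Extraction output of 8 one-colour 60-mer arrays and a table of processed values of the same arrays. In the scanner files the processed signal is an intensity, background subtracted and detrended within the array by the authors' software (version 12.0.0.7 per the file headers, 10.7.3.1 per the labels; build mm9). The deposited table, used as an alternative setting, held linear intensity values with a median of 52.9 in every array column, as quantile normalisation by the authors gives; its scale was read from the values. Each column correlated best with the scanner values of its own array.

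As in the study's methods, spots not positive and significant were removed and arrays were quantile normalised; taking the deposited intensity to log2 and removing spots marked as outliers were choices made here. This was done with limma 3.58.1 in R 4.3.3. Probes measured on 3 or more of the 4 arrays in both groups (28649 of 56605) were fitted by group alone with lmFit and eBayes, with Benjamini-Hochberg adjustment at 0.05. A t-test with unequal variances, which the study names in legends for these arrays while its methods describe a permutation t-test for another comparison, was run as an alternative (the methods' t-test). A gene with several probes was taken by its brightest. Python 3.11.15 and scipy 1.17.1 gave the exact permutation test, and biopython 1.88 aligned the U1 probes. The fit was tested on simulated data in which 200 of 28649 probes were changed. It made 94 calls, of which 5 were false. Of changes of 2 log2 units in either direction it recovered 83%, and of changes of 1 log2 unit 6%. A probe that was not called may therefore still have changed.

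The members and the lists were chosen with earlier results of these data known. Named were all member probes, all other structural RNAs on the list, up to 3 called genes of each partner list with the largest change, and the 3 genes most like each member over the 8 arrays after removal of group means. Outside this rule, Srp54a, Snrpf, Polr3gl, Gemin4 and genes with further probes called were also named. Probe sequences are those of the array files, and that of Rn7s1 is not reported here. Alternatives were a shift by the 75th percentile, cyclic loess, no scaling, normexp with an offset of 50, the deposited table, other filters on dim spots, a replicate block, a slide row block, omission of each array, a robust trended prior and, added after the data were seen, spike-in scaling. The number of arrays limits the precision.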

Additional observations from a re-analysis of the deposited data

Results flagged for a closer look

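Of 38 groups of 4 values examined for the structural RNAs and Pvt1, 1 held an array that stood far from the rest, where chance alone marks about 1 in 20 such groups. Terc read 7.22 on silenced replicate 3 and 3.88 to 4.38 on the other silenced arrays, on values without removal of dim spots.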

How the results depend on the processing

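The number of member probes called higher was 8 and ranged from 7 to 8 when single arrays were left out; it was within 1.5 times of that in 21 of 22 alternatives and 4 by the methods' t-test after Benjamini-Hochberg adjustment (Rn7s1, Rnu1a1, Rnu1b1 and Rnu3b1). The share of all probes called is given only for the chosen setting and the slide row block. Nothing is read from the counts in the other alternatives. The median change of the members was 2.30 to 3.45 over all alternatives, and 2.54 to 3.45 when single arrays were left out. Rmrp was called higher after cyclic loess (0.64), in the authors' table (0.62) and with no mask on dim spots (0.62). No member was called lower under any alternative run. Pvt1 stayed called, at -3.32 to -2.19, in the 18 alternatives compared; its probe was not analysed here in the authors' table.

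Partner genes called higher (2 in the chosen setting) numbered 5 with the 75th percentile shift, 18 in the authors' table, with cyclic loess and with no mask on dim spots, 13 without normalisation between arrays, 4 with normexp, 0 with a gene's tested probes averaged, 0 with the slide row as a block, 7 with a robust trended prior, 1 by the methods' t-test after Benjamini-Hochberg adjustment and 7 by that test unadjusted, and 1 to 12 when single arrays were left out, the 12 without silenced replicate 4. Those called lower (23) numbered 8 with the slide row as a block, 60 on spike-in scaling and 35 by the unadjusted t-test, and 15 to 23 when single arrays were left out, the 15 without control replicate 4. The cause was not tested. The median change of all tested probes was -0.57 on spike-in scaling and 0.02 after cyclic loess.

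Replicate numbers are shared by the groups. Same-numbered arrays correlated in their deviations from group means with r of -0.04, 0.19, 0.22 and 0.06. For arrays of different numbers r was -0.19 to 0.11. Not every array correlated best with its own number. These values do not settle whether the numbers pair the cultures. With the replicate block 8 member probes were called higher, and of the partner genes 1 was called higher and 15 lower.

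The structural RNA signals come from 1 spot for each gene, and dim on control arrays for several members.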
